A study of Mus musculus with 6 samples.

Results

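Dazl, Ddx4, Tex19.1, Mael, Mov10l1, Asz1, Tdrkh, Stk31 and Piwil2 encode proteins that handle RNA in germ cells, most of them in the defence of the germline against transposons. These 9 genes were taken from the 18193 genes that have a probe set of their own on the array, and every probe set whose array annotation names 1 of them alone was used. That gave 12 probe sets of 45037: 2 each for Dazl, Asz1 and Stk31, and 1 each for the other 6 genes.

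The study asked how inhibitors given during reprogramming change mouse induced pluripotent stem cells (iPSCs), which were made from embryonic fibroblasts of Nanog-GFP reporter mice with retroviral Oct3/4, Sox2, Klf4 and c-Myc. All 6 clones compared here were undifferentiated, were made with the same factors and were maintained in 3i, a mixture of the MEK inhibitor PD184352, the GSK3 inhibitor CHIR99021 and the FGF receptor inhibitor SU5402. The 3 (+)/(+) clones, numbered 4, 5 and 6, also received 3i during reprogramming, whereas the 3 (−)/(+) clones, numbered 1, 2 and 3, were reprogrammed without it. Each clone was grown from a single colony on feeder cells and measured on 1 array. The spread within a group thus holds differences between clones together with those between cultures, RNA preparations and arrays, which cannot be told apart. Whether feeder cells were removed before the RNA was extracted is not given in the sources used here.

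In fetal germ cells and in the testis, piRNAs, small RNAs bound by PIWI proteins, guide the cutting of transposon transcripts and the methylation of transposon DNA. Much of this machinery sits in germ granules beside mitochondria. The promoters of many such genes are rich in CpG, are methylated in somatic cells and are demethylated when primordial germ cells form, and in embryonic stem cells a Polycomb complex that holds MGA, MAX and E2F6 represses a share of them. Several of the genes are also expressed at some level in pluripotent cells.

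The promoters of 6 genes are shown: the 4 whose signals did not overlap between the groups (Ddx4, Mael, Stk31 and Tdrkh), and Dazl and Tex19.1, whose groups overlapped at signals above the filter on low signals in every clone. Each sequence is the 250 bases before the RefSeq start site on GRCm38.p6, 5′ to 3′ on the strand of the gene. Capitals mark CACGTG, the E-box bound by MGA and MAX, and TCCCGC or its reverse complement GCGGGA, the motif of E2F6.
Ddx4, chr13:112652311-112652560, minus strand: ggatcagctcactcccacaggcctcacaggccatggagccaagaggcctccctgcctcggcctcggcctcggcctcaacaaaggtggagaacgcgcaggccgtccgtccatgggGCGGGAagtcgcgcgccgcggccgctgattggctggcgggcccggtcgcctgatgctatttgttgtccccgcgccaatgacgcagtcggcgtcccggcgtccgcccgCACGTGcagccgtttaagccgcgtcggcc
Mael, chr1:166238745-166238994, minus strand: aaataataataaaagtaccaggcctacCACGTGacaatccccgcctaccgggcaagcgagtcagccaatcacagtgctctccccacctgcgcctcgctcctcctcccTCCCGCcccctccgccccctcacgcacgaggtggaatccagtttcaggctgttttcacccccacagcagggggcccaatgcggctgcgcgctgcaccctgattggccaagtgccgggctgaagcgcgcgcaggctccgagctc
Stk31, chr6:49395289-49395538, plus strand: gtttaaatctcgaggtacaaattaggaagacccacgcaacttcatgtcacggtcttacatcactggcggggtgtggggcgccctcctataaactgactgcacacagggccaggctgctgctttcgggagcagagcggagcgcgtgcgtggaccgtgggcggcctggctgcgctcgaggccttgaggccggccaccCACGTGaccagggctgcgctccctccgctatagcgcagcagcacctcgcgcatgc
Tdrkh, chr3:94412994-94413243, plus strand: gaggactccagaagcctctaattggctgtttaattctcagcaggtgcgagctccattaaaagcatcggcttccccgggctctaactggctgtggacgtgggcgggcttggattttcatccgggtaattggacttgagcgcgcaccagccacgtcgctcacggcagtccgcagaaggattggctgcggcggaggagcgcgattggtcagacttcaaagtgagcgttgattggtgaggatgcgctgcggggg
Dazl, chr17:50293621-50293870, minus strand: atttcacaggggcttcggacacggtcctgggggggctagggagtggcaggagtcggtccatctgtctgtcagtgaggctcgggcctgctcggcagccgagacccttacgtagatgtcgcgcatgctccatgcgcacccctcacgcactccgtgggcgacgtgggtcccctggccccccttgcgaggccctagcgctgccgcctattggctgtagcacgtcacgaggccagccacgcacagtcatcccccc
Tex19.1, chr11:121145893-121146142, plus strand: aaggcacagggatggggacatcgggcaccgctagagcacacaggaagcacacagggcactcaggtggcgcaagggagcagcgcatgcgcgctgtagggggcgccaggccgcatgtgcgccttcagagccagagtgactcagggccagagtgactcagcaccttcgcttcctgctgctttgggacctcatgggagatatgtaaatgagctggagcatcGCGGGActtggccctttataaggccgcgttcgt

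Both strands of 300-base windows, which run on for 50 bases after the start, were searched for these letters. The RefSeq table matched 8 of the 9 genes with 9 windows, since Stk31 has 2 starts, and Piwil2 was not matched. An E-box lay in the windows of 4 genes: it began 29 bases before the start of Ddx4, 55 bases before the first start of Stk31, 223 bases before that of Mael and 246 bases before that of Mov10l1. The E2F motif lay in 3 genes, at 136 bases before the start of Ddx4, at 33 bases before that of Tex19.1, and in Mael both at 143 bases before the start and at base 12 after it. Ddx4 and Mael held both motifs, and Dazl, Asz1 and Tdrkh neither. Among the promoters of all tested genes, 10.2% held the E-box, 35.7% the E2F motif and 3.84% both (7.15%, 19.98% and 1.99% of all 32851 windows). The windows of the 8 genes held 16 to 38 CpG, against a median of 21 among tested genes and 7 among all windows. These matches describe letters in the windows, and binding was not measured.

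**Figure D1:**
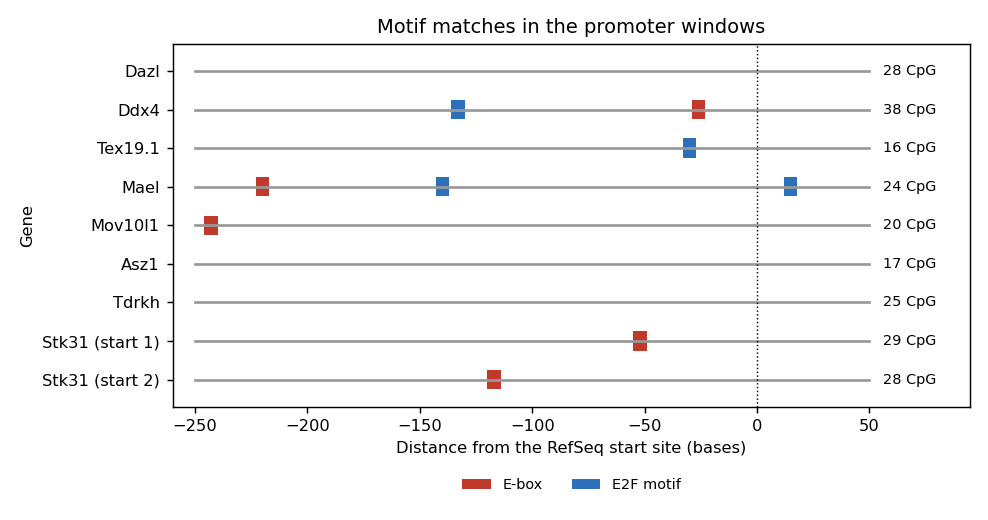
Motif matches in the 300-base promoter windows, by distance in bases from the RefSeq start site (dotted line), with red blocks for the E-box and blue blocks for the E2F motif. The windows of Ddx4 and Mael hold both motifs, those of Dazl, Asz1 and Tdrkh hold neither, and the CpG counts at the right run from 16 (Tex19.1) to 38 (Ddx4).

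On the array, 1 of the 9 genes passed the test. Ddx4 was 1.99-fold higher in the (+)/(+) clones than in the (−)/(+) clones, and no probe set of the 9 genes was called lower. Mael, Stk31 and Tdrkh were also higher in each (+)/(+) clone than in any (−)/(+) clone but missed the threshold, while Dazl, Tex19.1, Asz1 and Mov10l1 overlapped between the groups, with clone 1 high and clone 2 low, and Piwil2 stood almost level. The signals were tested as log2(signal + 16) with limma. The filter on low signals kept the 22518 probe sets whose mean on this log2 scale lay above the median of all probe sets. This cut equals a signal of 67.2. A probe set was called at a Benjamini-Hochberg adjusted p under 0.05 over these 22518 probe sets. Of these, 305 (1.35%) were called higher and 398 (1.77%) lower in (+)/(+), and when the arrays were scaled to a common median instead, which moved the median difference of all tested probe sets by 0.15 on the log2 scale, 917 were called higher and 238 lower. Of the 12 probe sets, 11 passed the filter on low signals and 1 of these was called.

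Ddx4 encodes the germ cell RNA helicase known as VASA, a component of germ granules and the usual marker of the germline. Its signal was 1282, 1690 and 1200 in (+)/(+) clones 4, 5 and 6, against 993, 540 and 566 in (−)/(+) clones 1, 2 and 3. The lowest (+)/(+) clone lay above the highest (−)/(+) clone, and clone 1 stood above the other two of its group. The means were 1391 ± 262 in (+)/(+) and 699.7 ± 254.5 in (−)/(+) (SD, n = 3 each), and the log2 difference was 1.01 ± 0.22 (SE, limma, adjusted p = 0.041, 95% interval 0.52 to 1.51). The call rests on all clones other than clone 1: the adjusted p was 0.088, 0.13, 0.094, 0.12 and 0.12 when clone 2, 3, 4, 5 and 6 was left out, and 0.0045 when clone 1 was, with log2 differences between 0.86 and 1.29.

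Mael, which encodes the germ granule protein maelstrom needed to silence transposons in the male germline, gave the second largest difference among the probe sets whose groups did not overlap. Its signal was 752, 1166 and 1141 in (+)/(+) clones 4, 5 and 6, against 570.0, 373 and 702 in (−)/(+) clones 1, 2 and 3. Clone 4 was only slightly above clone 3, so the gap between the groups was narrow. The means were 1019 ± 232 in (+)/(+) and 549 ± 166 in (−)/(+) (SD, n = 3 each), with a log2 difference of 0.89 (95% interval 0.38 to 1.41, limma adjusted p = 0.066). With arrays scaled to a common median the adjusted p was 0.027.

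Stk31 encodes a kinase-like protein with a tudor domain that is found in germ cells. Its probe set 1454138_a_at gave 854, 1061 and 1077 in (+)/(+) clones 4, 5 and 6, against 851, 498 and 388 in (−)/(+) clones 1, 2 and 3. Clone 1 thus nearly reached clone 4, while clones 2 and 3 were well below all others. Probe set 1425317_x_at, which by its suffix may share probes with other sequences, gave 707, 705 and 944 in (+)/(+) clones 4, 5 and 6, against 692, 423 and 353 in (−)/(+) clones 1, 2 and 3, in the same arrangement. The log2 differences were 0.84 (95% interval 0.30 to 1.37, limma adjusted p = 0.085) and 0.71 (0.21 to 1.21, adjusted p = 0.11), and with arrays scaled to a common median both passed (adjusted p = 0.035 and 0.048). Both passed without clone 1, at 1.14 (adjusted p = 0.0069) and 0.98 (adjusted p = 0.016). The 20 tested genes nearest to Stk31 on chromosome 6 had a median shift of −0.35 in clone 3 and −0.13 in clone 2 on the log2 scale, and the part of this shift in the result was not tested.

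Tdrkh, also known as Tdrd2, encodes a mitochondrial tudor protein that binds PIWI proteins during piRNA trimming. It gave 277, 262 and 271 in (+)/(+) clones 4, 5 and 6, against 225, 144 and 201 in (−)/(+) clones 1, 2 and 3. The (+)/(+) clones were nearly equal, and all lay above the (−)/(+) clones. The means were 270.1 ± 7.25 in (+)/(+) and 190.0 ± 41.8 in (−)/(+) (SD, n = 3 each), with a log2 difference of 0.49 (95% interval 0.091 to 0.90, limma adjusted p = 0.15).

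The 5 probe sets of Ddx4, Mael, Stk31 and Tdrkh were thus the ones without overlap, 5 of the 11 tested, all higher in (+)/(+). Over all tested probe sets, 10.5% were without overlap and higher in (+)/(+) and 16.6% without overlap and lower. The same 5 had an unadjusted p under 0.05, as had 8.40% of all tested probe sets in the higher and 12.8% in the lower direction. Of the 11 probe sets, 10 had a log2 difference above 0, against 42.4% of all tested probe sets, and their median was 0.60, against −0.054.

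**Figure D2:**
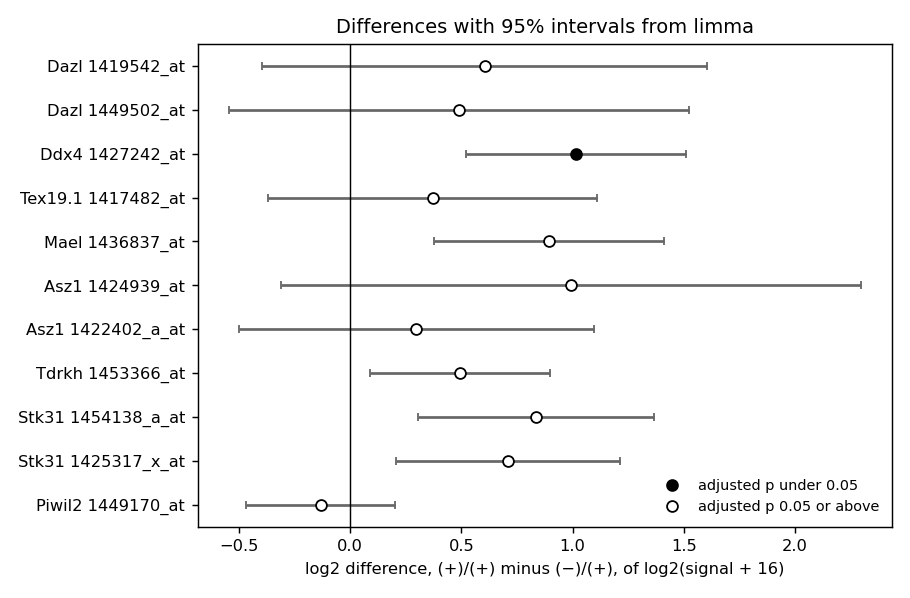
Log2 differences, (+)/(+) minus (−)/(+), of log2(signal + 16) for the 11 tested probe sets, with 95% intervals from limma over 3 clones a group. The filled point is Ddx4, the 1 call (1.01), and the intervals of Mael, Tdrkh and both Stk31 probe sets also lie above 0.

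**Figure D3:**
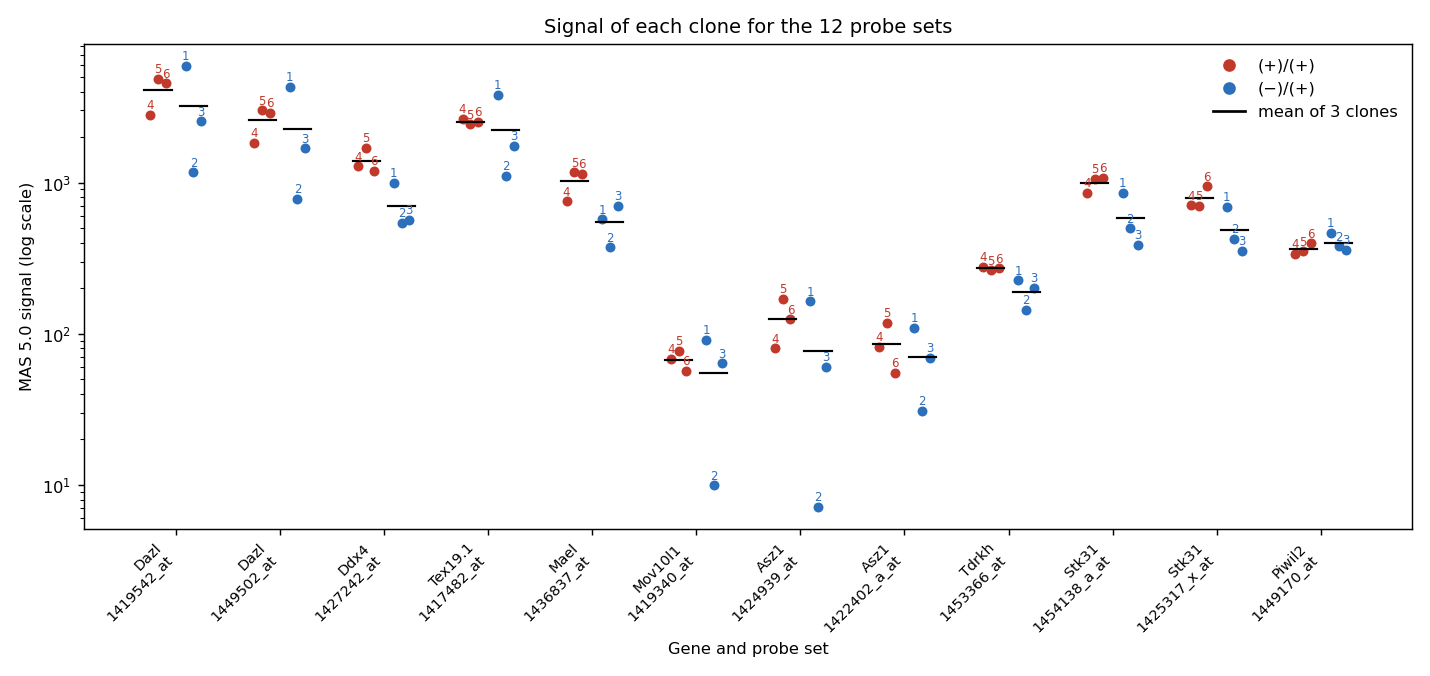
MAS 5.0 signal of each clone (log axis) for the 12 probe sets, with (+)/(+) clones 4, 5 and 6 in red left of (−)/(+) clones 1, 2 and 3 in blue, and black lines for the means of 3 clones. The groups stand apart for Ddx4, Mael, Tdrkh and Stk31, and for Dazl and Tex19.1 clone 1 is the highest of all 6 clones and clone 2 the lowest.

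Dazl encodes an RNA-binding protein that promotes translation in germ cells. Probe set 1419542_at gave 2815, 4867 and 4536 in (+)/(+) clones 4, 5 and 6, against 5900.1, 1166 and 2546 in (−)/(+) clones 1, 2 and 3. The (−)/(+) group held both the highest and the lowest clone, 5.06-fold apart, against 1.73-fold within (+)/(+). Probe set 1449502_at gave 1824, 3008 and 2902 in (+)/(+) clones 4, 5 and 6, against 4284, 784 and 1685 in (−)/(+) clones 1, 2 and 3, and ordered the 6 clones in the same way. The log2 differences were 0.60 (95% interval −0.39 to 1.60, limma adjusted p = 0.47) and 0.49 (−0.54 to 1.52, adjusted p = 0.58), and both intervals reach from a fall to a rise past 2-fold. Without clone 2 they were 0.031 and −0.095, and without clone 1 they were 1.19 and 1.12 (adjusted p = 0.059 for 1419542_at).

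Tex19.1 encodes a mammal-specific protein that restrains retrotransposons in germ cells, pluripotent cells and the placenta. Its signals of 2646, 2424 and 2515 in (+)/(+) clones 4, 5 and 6 lay close together, against 3820.2, 1108 and 1750 in (−)/(+) clones 1, 2 and 3. Clone 1 lay above and clones 2 and 3 below every (+)/(+) clone. The log2 difference was 0.37 (95% interval −0.37 to 1.11, limma adjusted p = 0.56). It was −0.034 without clone 2, and 0.85 without clone 1, where it passed (adjusted p = 0.028). Clone 1 was also shifted over chromosome 11 as a whole, which carries Tex19.1: its median shift was 0.25 on the log2 scale over 929 tested genes and 0.37 over the 20 nearest to Tex19.1. With chromosome shifts subtracted, the difference was 0.52 (adjusted p = 0.33).

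Asz1 encodes a protein of the mitochondrial surface needed for piRNA production, and its signals were low. Probe set 1424939_at gave 80.0, 170.0 and 125 in (+)/(+) clones 4, 5 and 6, against 164, 7.18 and 60.5 in (−)/(+) clones 1, 2 and 3. Clone 2 again was lowest, at a signal near the background of the array. Probe set 1422402_a_at gave 82.1, 118 and 55.2 in (+)/(+) clones 4, 5 and 6, against 109.9, 30.9 and 69.5 in (−)/(+) clones 1, 2 and 3, with (+)/(+) clone 6 below (−)/(+) clone 3. The log2 differences of 0.99 (95% interval −0.31 to 2.30, limma adjusted p = 0.36) and 0.30 (−0.50 to 1.10, adjusted p = 0.67) did not pass, and the second was −0.085 without clone 2.

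Mov10l1, the RNA helicase that feeds precursor transcripts into the piRNA pathway, stayed below the filter on low signals. It gave 68.3, 77.0 and 56.7 in (+)/(+) clones 4, 5 and 6, against 90.7, 9.95 and 63.8 in (−)/(+) clones 1, 2 and 3. The order of clones 1 and 2 was that seen for Dazl. A two-sided exact permutation test on the means gave p = 0.8, where 3 clones against 3 cannot give a p under 0.1.

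Piwil2, the PIWI protein MILI that carries piRNAs, gave 339, 351 and 397 in (+)/(+) clones 4, 5 and 6, against 464, 378 and 359 in (−)/(+) clones 1, 2 and 3. It was the 1 tested gene whose mean was lower in (+)/(+), at 362 ± 30.5 in (+)/(+) and 400.4 ± 55.6 in (−)/(+) (SD, n = 3 each). The log2 difference was −0.13 (95% interval −0.47 to 0.20, limma adjusted p = 0.65), and 0.019 with arrays scaled to a common median.

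Within the (−)/(+) group, the clones differed in a like way for most of the genes. Clone 2 was the lowest of the 6 clones in 9 of the 12 probe sets, and in 8 of the 11 tested, against 19.3% of all tested probe sets. Clone 1 was the highest in 5 of the 12 and in 4 of the 11, against 21.4%. The SD of log2 values was larger in (−)/(+) than in (+)/(+) for all 12 probe sets, against 55.1% of all tested probe sets. For the 9 probe sets with a signal above 67.2 in every clone, the highest clone exceeded the lowest by 1.05- to 1.73-fold within (+)/(+) and by 1.29- to 5.47-fold within (−)/(+). The probe sets are read on the same 6 arrays and 3 genes have 2 of them, so these counts are descriptions and not independent observations.

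Averaged over the 8 tested genes, with 1 probe set a gene, the deviation from the mean of the 6 clones was 0.10, 0.47 and 0.38 on the log2 scale in (+)/(+) clones 4, 5 and 6, against 0.34, −0.93 and −0.37 in (−)/(+) clones 1, 2 and 3. On this average, clone 1 thus lay among the (+)/(+) clones and clone 2 furthest from them. For Ddx4, Mael, Stk31 and Tdrkh, however, clone 1 was below every (+)/(+) clone. Asz1 entered the average of clone 2 at −2.06, from a signal of 7.18. Without clone 1, 4 of the 11 probe sets (Ddx4, Tex19.1 and both of Stk31) were called higher and 0 lower, where 1.98% of all tested probe sets were called higher and 2.29% lower. Without clone 2, 3, 4, 5 or 6, 0 of the 11 were called. The filter was set anew for each of these fits, and Asz1 1422402_a_at was not tested without clone 1 or without clone 5. In RNA from whole cultures, fewer cells that express a gene and less RNA of it per cell cannot be told apart.

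**Figure D4:**
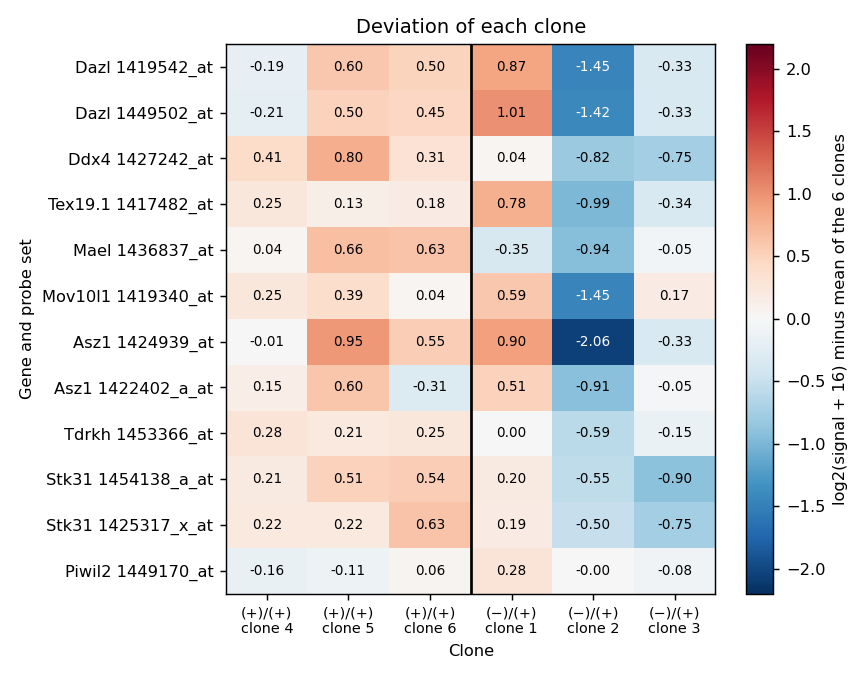
Deviation of each clone, as log2(signal + 16) minus the mean of the 6 clones, for the 12 probe sets, with (+)/(+) clones 4, 5 and 6 left of the black line and (−)/(+) clones 1, 2 and 3 right of it; red is above and blue below the mean. The column of clone 2 holds the lowest value in 9 of 12 rows, down to −2.06 for Asz1, and clone 1 the highest in 5.

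The 5 genes outside the set whose signals followed this average profile most closely over the 6 clones were Rmnd5a, a subunit of an E3 ubiquitin ligase (Pearson's r = 0.999), the testis RNA helicase Ddx25 (0.995), the inositol phosphatase Inpp5d (0.993), the phosphodiesterase Gde1 (0.991) and the endoplasmic reticulum prolyl isomerase Fkbp9 (0.989). These are the highest of all single-gene probe sets over 6 points and carry no test. Rmnd5a gave 2027, 2460 and 2380 in (+)/(+) clones 4, 5 and 6, against 2384, 984 and 1453 in (−)/(+) clones 1, 2 and 3. It too was lowest in clone 2, and none of the 5 differed between the groups past the threshold (limma adjusted p = 0.21 to 0.38).

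Of 33 other genes of the piRNA pathway and germ granules, 27 had a probe set of their own and 20 were tested, of which 2 were called higher and 1 lower, where 1.55% of all tested genes were called higher and 1.41% lower. Their median log2 difference was 0.043, against −0.051 over all tested genes. Gtsf1, a zinc finger protein that assists PIWI proteins, gave 630.3, 735 and 736 in (+)/(+) clones 4, 5 and 6, against 416, 236 and 240.0 in (−)/(+) clones 1, 2 and 3 (log2 difference 1.24, limma adjusted p = 0.017). Its probe set is also of the kind that may share probes with other sequences, and the call was lost without clone 3, 5 or 6 (adjusted p = 0.062, 0.064 and 0.093). Tex15, needed for the silencing of transposons in the male germline, gave 2640, 1386 and 1987 in (+)/(+) clones 4, 5 and 6, against 1011, 652 and 1044 in (−)/(+) clones 1, 2 and 3 (log2 difference 1.12, adjusted p = 0.036). Clone 4, the highest, was shifted by a median of 0.33 over the tested genes of chromosome 8, which carries Tex15, and the call was lost without clone 2, 3, 4 or 6 (adjusted p = 0.073, 0.072, 0.099 and 0.14).

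The gene called lower was Pnldc1, the exonuclease that trims piRNA ends. It gave 377, 412 and 413 in (+)/(+) clones 4, 5 and 6, against 560.5, 714 and 585 in (−)/(+) clones 1, 2 and 3 (log2 difference −0.60, limma adjusted p = 0.049), and the call was lost without clone 2, 3, 4, 5 or 6 (adjusted p = 0.11 to 0.16), with quantile normalization and with a common median. Here clone 2 was the highest of the 6. The genes Piwil1, Piwil4 and Tdrd1 are given as well, chosen after their values were seen. The PIWI genes other than Piwil2 were below the filter on low signals: Piwil1 averaged 15.0 in (+)/(+) and 33.1 in (−)/(+), and Piwil4 66.2 in (+)/(+) and 67.3 in (−)/(+). The germ granule scaffold gene Tdrd1 averaged 4.30 in (+)/(+) and 3.47 in (−)/(+).

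Among 23 genes of meiotic germ cells, most of them of meiotic chromosomes, 17 were tested. Of these, 6 were called higher and 0 lower in (+)/(+), with a median log2 difference of 0.67. Over all tested genes, 1.55% were called higher and 1.41% lower, and the median was −0.051. Like the other lists, this one was chosen with earlier results of these data known. Its count is thus not an independent result against these shares. Tex11, an X-linked gene needed for crossing over, averaged 536 ± 75.4 in (+)/(+) and 236 ± 26.0 in (−)/(+) (SD, n = 3 each, limma adjusted p = 0.0090), and the synaptonemal complex genes Sycp3 (adjusted p = 0.025) and Sycp1 (adjusted p = 0.029) averaged 2104 and 996 in (+)/(+) and 989.6 and 439 in (−)/(+). Slc25a31, a gene of this list that is not of chromosomes, was also called (580 in (+)/(+) and 228 in (−)/(+), limma adjusted p = 0.027). The count of 6 called genes was 0 without clone 5 or clone 6, 2 without clone 3 and 3 without clone 4. Among 27 tested regulators of germline gene silencing, which include DNA methyltransferases, Polycomb subunits and the enzymes Tet1 and Tet2 that remove DNA methylation, 0 were called higher and 1 lower, with a median of −0.088. Without Tet1 and Tet2, left out after the values were seen, 1 of 25 was called lower and the median was −0.018. The gene called was Uhrf1, which brings the maintenance DNA methyltransferase to replicated DNA, with 5516, 5348 and 5161 in (+)/(+) clones 4, 5 and 6, against 6656, 8248 and 7319 in (−)/(+) clones 1, 2 and 3 (log2 difference −0.47, adjusted p = 0.036). The call was lost without clone 2, 3, 4, 5 or 6 (adjusted p = 0.075 to 0.15) and with a common median.

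Unlike the meiotic and piRNA lists, the lists of primordial germ cell, oocyte, spermatid, and Sertoli and Leydig cell genes gave no call in the direction of Ddx4. Of 9 tested primordial germ cell genes, 0 were called higher and 1 lower, and their summed signal was 12139 to 14873 in (+)/(+) and 12167 to 17826 in (−)/(+). The 1 was the membrane protein gene Ifitm3, at 2613 ± 111 in (+)/(+) and 3996 ± 696 in (−)/(+) (SD, n = 3 each, limma adjusted p = 0.040), a call lost with a common median and without clone 2, 3, 4, 5 or 6 (adjusted p = 0.083 to 0.13). Of 10 oocyte genes measured, 8 were below the filter and 0 of the others were called, with a summed signal of 428 to 445 in (+)/(+) and 564 to 685 in (−)/(+). The tested oocyte genes, Zp3 and Gdf9, were both lower in (+)/(+). Their log2 differences were −0.70 (95% interval −1.12 to −0.27, limma adjusted p = 0.076) and −0.34 (−0.86 to 0.18, adjusted p = 0.44). The highest (+)/(+) clone of Zp3 (201) lay below its lowest (−)/(+) clone (247). Over all tested probe sets, 16.6% were without overlap and lower. Of 11 spermatid genes, 10 were below the filter and the sum was 265 to 323 in (+)/(+) and 279.9 to 422 in (−)/(+). Of 3 tested Sertoli and Leydig cell genes 0 were called, the transcription factor gene Dmrt1 averaging 2081 ± 197 in (+)/(+) and 1654 ± 89.4 in (−)/(+) (SD, n = 3 each, adjusted p = 0.13). Dmrt1 did lean in the direction of Ddx4: its lowest (+)/(+) clone (1915) lay above its highest (−)/(+) clone (1731). Over all tested probe sets, 10.5% were without overlap and higher in (+)/(+). The log2 difference of Dmrt1 was 0.33 (95% interval 0.080 to 0.57). The other tested genes of this list, Gata4 and Star, leaned the other way, with log2 differences of −0.48 and −0.23 (limma adjusted p = 0.30 and 0.53). The summed signal of the 6 genes measured, most of it from Dmrt1, was 2173 to 2497 in (+)/(+) and 1896 to 1972 in (−)/(+).

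Some marker lists of other cell states differed between the groups. The summed signal of 17 fibroblast markers was 13140 to 14896 in (+)/(+) and 20578 to 28531 in (−)/(+), the lowest (−)/(+) value being that of clone 1, and 5 of 14 tested markers were called lower (1.41% of all tested genes) and 0 higher, led by the collagen gene Col1a2 (log2 difference −1.58, limma adjusted p = 0.0043). None of the 17 was listed at 0, and 3 were below the filter. The brightest, Vim, averaged 7012 in (+)/(+) and 12897 in (−)/(+) and made up a large part of the sum. Of the 14 tested markers, 1 had a log2 difference above 0. The count of 5 fell to 3 when clone 2 was left out, to 2 for clone 3, 4 or 5, and to 1 for clone 6. The summed signal of 6 genes of the 2-cell embryo was 27174 to 35587 in (+)/(+) and 4515 to 9639 in (−)/(+), with clone 2 lowest at 4515, and 6 of 6 were called higher (1.55% of all tested genes), such as the deubiquitinase gene Usp17la (log2 difference 2.04, limma adjusted p = 0.0032). Of 12 pluripotency genes, 1 was called higher and 0 lower: the F-box gene Fbxo15 (log2 difference 0.64, adjusted p = 0.014), a call lost without clone 5 or 6 (adjusted p = 0.051 and 0.090). BC080696, first listed with the 2-cell genes, is not classed as one by the study and was left out of them after its values were seen. Its log2 difference was 2.24 (limma adjusted p = 0.0011). Of 15 genes first listed for the 2-cell embryo, 7 had a probe set of their own, BC080696 included, and Zscan4 was not among the 7. Some genes of this list had already been named by the study as higher in these same arrays. AF067061 and Tcstv1 are examples. The calls of this list were thus partly known in advance and are not an independent result against the share of all tested genes. The summed signal of the pluripotency genes was 124552 to 129042 in (+)/(+) and 108777 to 118291 in (−)/(+). The part of fibroblast markers and 2-cell genes in the differences of Ddx4, Mael, Stk31 and Tdrkh was not tested.

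**Figure D5:**
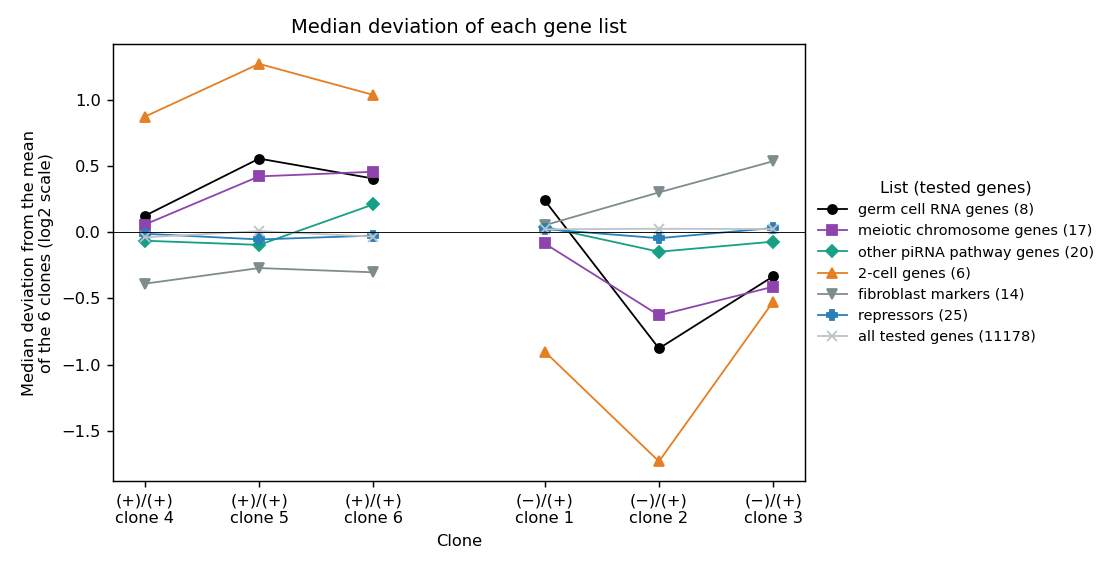
Median deviation of each gene list from the mean of the 6 clones, on the log2 scale, in (+)/(+) clones 4, 5 and 6 and (−)/(+) clones 1, 2 and 3. The germ cell RNA genes (black, 8 tested genes) stand at 0.12 to 0.56 in (+)/(+), and at 0.24, −0.88 and −0.33 in clones 1, 2 and 3, with the 2-cell and meiotic lists also lowest in clone 2 and the fibroblast markers highest in clone 3.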

How the data were processed

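The authors labelled RNA of 6 clones and measured it on Affymetrix Mouse Genome arrays of 1 colour. The deposited values are MAS 5.0 signal intensities on a linear scale, scaled array by array to a trimmed mean of 500.0. After removal of 64 control probe sets from 45101, log2(signal + 16) was fitted on group alone with limma 3.58.1 (R 4.3.3; lmFit, and eBayes with trend) without further normalization. The fit was tested on simulated data. A gene was counted by its brightest probe set. The members and lists were chosen with earlier results of these data known. Named genes were all members, at most 4 called genes a list by adjusted p (at most 3 by signal if a list had no call), and 5 genes most like the average profile; others are marked where they stand. Alternatives changed scaling, pseudocount (1, 64), filter, eBayes, array weights, chromosome shifts and clones, and included the methods' t-test. The number of arrays limits the precision, and p-values measure only the spread between these clones, each on 1 array. Promoters came from RefSeq, GRCm38.p6.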

Additional observations from a re-analysis of the deposited data

How the results depend on the processing

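No paired analysis was possible because the groups share no clone numbers. Of the members' log2 differences, 4 changed sign under some alternative: without clone 2, Dazl 1449502_at (−0.095, up to 1.12 without other clones), Asz1 1422402_a_at (−0.085, up to 0.53) and Tex19.1 (−0.034, up to 0.85), and with a common median Piwil2 (0.019). The count of member probe sets called higher (1) was 4 with a common median and with array weights, 0 with no filter, with no trend in eBayes and with the methods' t-test after Benjamini-Hochberg, and 0 to 4 when a clone was left out. The count of member genes (1) was 3, 3, 0, 0 and 0 under these settings, 0 when probe sets of a gene were averaged (adjusted p = 0.060 for Ddx4), and 0 to 3 when a clone was left out. No member was called lower under any of them. The adjusted p of Ddx4 was 0.089 with no filter, 0.084 with no trend and 0.24 by the adjusted t-test. The cause of these changes was not tested.

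Over all probe sets, calls higher (305) were 917 with a common median, 101 with no filter, 87 with no trend, 1015 with array weights, 1572 and 0 with the t-test before and after adjustment, and 27 to 446 when a clone was left out. Calls lower (398) were 255 with quantile normalization, 238, 120, 178 and 1512 under the first 4 of those settings, 165 above a mean signal of 500, 2427 and 1 with the t-test, and 25 to 515 when a clone was left out.

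With no filter, fibroblast markers called lower (5) numbered 3, meiotic genes called higher (6) 1, other piRNA genes called higher (2) 1 and lower (1) 0, and primordial germ cell genes and repressors called lower (1 each) 0. Above a mean signal of 500 these were 3, 2, 1 and 0, with 2 repressors lower. With no trend they were 2, 1, 1, 0, 0 and 0, and pluripotency genes called higher (1) 0. With array weights, 9 fibroblast, 10 meiotic, 3 piRNA (lower), 5 repressor (lower), 1 repressor (higher), 1 oocyte (lower) and 2 pluripotency genes were called. With a common median, 3 pluripotency genes and 1 repressor were higher, and 0 piRNA, primordial germ cell and repressor genes lower. With quantile normalization, 0 piRNA genes and 2 repressors were lower. The unadjusted t-test gave 2 piRNA genes, 3 repressors and 1 oocyte gene lower, and 3 pluripotency genes, 1 repressor and 1 Sertoli and Leydig cell gene higher; after adjustment every list, the 2-cell genes (7 with BC080696) included, gave 0. When a clone was left out, the ranges were 1 to 6 fibroblast, 0 to 9 meiotic, 0 to 2 piRNA (either direction), 0 to 1 primordial germ cell, 0 to 1 repressor, 0 to 1 pluripotency (either direction) and 6 to 7 2-cell genes. Leaving out BC080696 (6 of 6 called) and Tet1 and Tet2 (1 of 25 lower), chosen after seeing the data, left the other counts of these lists as they were.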
